A study of Mus musculus with 12 samples.

Results

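The TNF superfamily ligands that T cells make were followed across regulatory T (Treg) cells of 3 genotypes: the 9 genes Lta, Ltb, Tnf, Cd40lg, Tnfsf8, Tnfsf11, Fasl, Tnfsf10 and Tnfsf14. They were taken by symbol from a count table of 25189 mouse genes, and all 9 were among the 13196 genes with enough reads to be tested. The study sequenced RNA from splenic Treg cells of female mice 4 weeks old, with 4 libraries for each genotype. The double-deficient libraries (labelled Ric, replicates 2, 3, 4 and 5) are labelled as deficient in both Foxp3, which encodes the lineage factor of Treg cells, and Rictor, a subunit of the mTOR complex that phosphorylates AKT. The Foxp3-deficient libraries (labelled deltaIcre, replicates 1, 3, 4 and 5) are labelled as deficient in Foxp3 only, and the WT libraries (replicates 1, 3, 4 and 5) as wild type.

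The labels name 2 strains, Foxp3∆EGFPiCre/RFP R26YFP and Foxp3∆EGFPiCre/+ Rictor∆/∆ R26YFP, and a sort for CD4+RFP+ or CD4+YFP+ cells, but do not tie a strain or gate to each library. As these allele names read, Cre was expressed from the disrupted Foxp3 allele, R26YFP reported its activity, and each strain kept another Foxp3 allele (RFP or +), so that the mice also held Treg cells with intact Foxp3. The labels do not say whether a library came from 1 mouse or from a pool. Nothing in them says that replicates were separate cultures or sorts, so the p-values measure the spread between these libraries, which may be partly technical.

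TNF superfamily ligands are trimeric proteins, most of them anchored in the membrane, that engage receptors of the TNF receptor superfamily on neighbouring cells. In T cells they carry help to B cells (CD40L), instruct stromal cells and the architecture of lymphoid organs (the lymphotoxins), promote inflammation (TNF), costimulate (LIGHT, CD30L), drive osteoclast and epithelial differentiation (RANKL) and kill (FasL, TRAIL). CD40L is best known from activated helper T cells, and RANKL and the lymphotoxins from both conventional and regulatory T cells.

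The libraries held 15769737 to 26114044 reads assigned to genes, and the ligands took 70 to 52878 reads each in a library. Foxp3 averaged 102 ± 13.7 CPM in double-deficient, 118 ± 22.8 in Foxp3-deficient and 633 ± 75.8 in WT cells (SD, n = 4 each; log2 fold change -2.42, edgeR adjusted p = 1.18e-08, in Foxp3-deficient and -2.63, edgeR adjusted p = 2.95e-09, in double-deficient cells against WT), where CPM is the read count scaled to library size with edgeR's TMM factors. Rictor averaged 141 ± 12.6 CPM in double-deficient, 189 ± 31.2 in Foxp3-deficient and 148 ± 14.4 in WT cells. Rictor in double-deficient cells was below the level in Foxp3-deficient cells, with a log2 fold change of -0.42 (edgeR adjusted p = 0.0129), a call lost once the trend with transcript length and GC content was removed, and did not pass against WT (-0.08). In Foxp3-deficient cells it was above WT by 0.35 (edgeR adjusted p = 0.0494), a call lost when any library other than WT replicate 4 or Foxp3-deficient replicate 3 or 5 was left out (0.24 to 0.35). That call was also lost with upper quartile scaling (0.33, edgeR adjusted p = 0.0645) and a stricter low-count filter (0.33, edgeR adjusted p = 0.0649). The same held for limma-voom (0.34, adjusted p = 0.0577) and a fit of only the groups compared (0.34, edgeR adjusted p = 0.0823). A whole-gene count cannot check a conditional deletion that removes some exons, so Rictor loss was not checked here. The T cell gene Cd3e averaged 1073, 1110 and 1211 CPM in double-deficient, Foxp3-deficient and WT cells and was not called. Cd3d, at 548, 344 and 400.1 CPM in the same groups, and Cd3g, at 928, 630 and 728 CPM, were higher in double-deficient than Foxp3-deficient cells, as Ltb was, and Cd4, at 867, 1079 and 757 CPM, was lower. Of 9 T cell and Treg markers, 4 were higher and 1 lower in double-deficient against Foxp3-deficient cells, 1 higher and 4 lower in Foxp3-deficient against WT cells, and 1 higher and 3 lower in double-deficient against WT cells. The shares of all tested genes called were 27.2%, 13.7% and 32.6% in the same order. With the replicate number as a block, 4 markers were higher and 0 lower in double-deficient against Foxp3-deficient cells, so Cd4 was not called there. The part of these markers in the ligands' differences was not tested.

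Against WT, Foxp3-deficient cells carried more Cd40lg, Tnfsf8 and Fasl and less Lta, Tnfsf10 and Tnfsf11 mRNA. Ltb, Tnf and Tnfsf14 did not pass the test. In bulk RNA, fewer cells that make a ligand and less RNA per cell cannot be told apart. A gene was called at a Benjamini-Hochberg adjusted p under 0.05 over all 13196 genes in edgeR's quasi-likelihood test. That made 6 of the 9 ligands called, 3 higher and 3 lower, beside 13.7%, 6.99% and 6.74% of all tested genes. The CPM of the groups did not overlap for 5 ligands, beside 17.8% of all genes. The median log2 fold change of the ligands was -0.11, and that of all tested genes was 0.00.

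In double-deficient cells, Ltb and Tnfsf8 were higher and Cd40lg lower than in Foxp3-deficient cells, while the other 6 ligands did not pass. These 3 called ligands of 9, 2 higher and 1 lower, stand beside 27.2%, 13.9% and 13.3% of all genes, and shares of that size are near the background. The same holds for the 3 ligands whose CPM did not overlap, beside 25.0% of all genes. The median log2 fold change was 0.01, against -0.02 over all genes. The WT libraries are the control of both the first comparison and the one that follows, so these are not independent. Against WT, double-deficient cells had Cd40lg, Ltb, Tnfsf8 and Fasl higher and Lta, Tnfsf10 and Tnfsf11 lower. These are 7 called ligands, 4 higher and 3 lower, beside 32.6%, 15.8% and 16.8% of all genes. The CPM did not overlap for 7 ligands, beside 39.7% of all genes, and the median log2 fold change was 0.39 for the ligands and -0.03 for all genes.

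**Figure D1:**
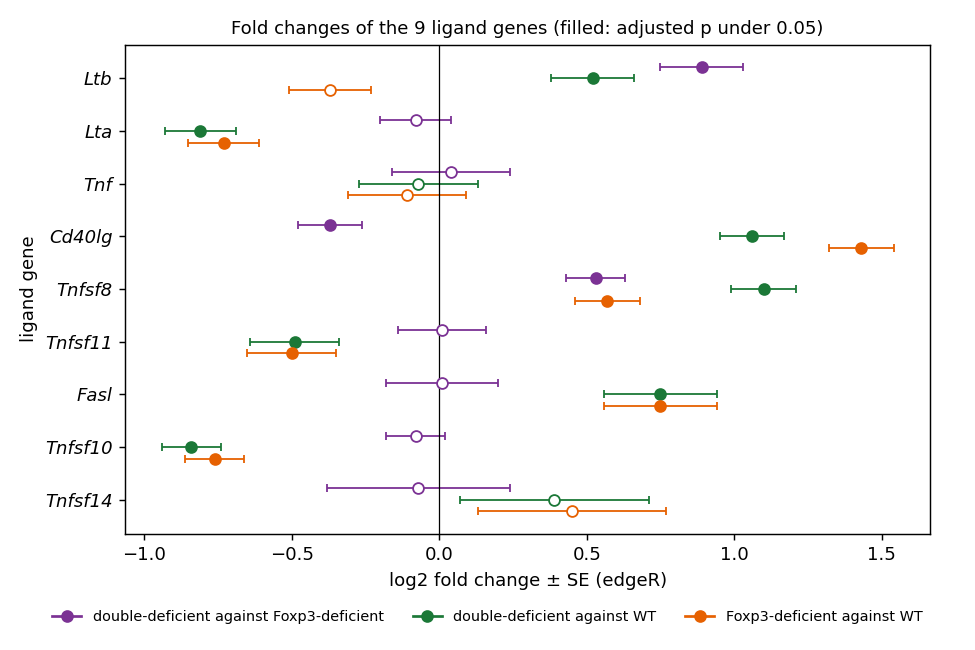
Log2 fold change of each ligand gene in the 3 comparisons (x axis; points with SE bars, filled where the edgeR adjusted p is under 0.05). Cd40lg has the largest increase, 1.43 in Foxp3-deficient cells against WT, and Ltb the largest difference between double-deficient and Foxp3-deficient cells, 0.89.

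The lymphotoxin genes and Tnf lie side by side on chromosome 17 (GRCm38): Ltb at 17:35194439-35196320 on the plus strand, Tnf at 17:35199381-35202007 and Lta at 17:35203165-35205351, both on the minus strand. Lymphotoxin alpha is secreted as a homotrimer that binds the TNF receptors, and joins lymphotoxin beta at the cell surface in a heterotrimer that binds the lymphotoxin beta receptor. The sequence upstream of each of these genes is shown because, in double-deficient against WT cells, Ltb was called higher, Lta lower and Tnf not at all. Each stretch runs 5′ to 3′ on the gene's strand and ends before the first annotated exon base, and capitals mark matches to any of 4 searched motifs. They come from RefSeq's promoter windows on GRCm38.p6, which hold 250 bases before to 50 after the start site.

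Ltb (17:35194257-35194438, plus strand): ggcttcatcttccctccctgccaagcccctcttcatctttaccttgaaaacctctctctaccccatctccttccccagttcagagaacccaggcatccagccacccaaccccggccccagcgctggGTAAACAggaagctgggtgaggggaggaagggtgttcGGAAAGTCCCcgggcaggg
Lta (17:35205352-35205601, minus strand): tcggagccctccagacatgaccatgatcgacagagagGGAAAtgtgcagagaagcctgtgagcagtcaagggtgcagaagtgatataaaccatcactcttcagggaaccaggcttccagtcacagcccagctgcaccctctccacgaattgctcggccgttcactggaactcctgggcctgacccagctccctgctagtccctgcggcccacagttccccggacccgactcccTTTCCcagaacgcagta
Tnf (17:35202008-35202257, minus strand): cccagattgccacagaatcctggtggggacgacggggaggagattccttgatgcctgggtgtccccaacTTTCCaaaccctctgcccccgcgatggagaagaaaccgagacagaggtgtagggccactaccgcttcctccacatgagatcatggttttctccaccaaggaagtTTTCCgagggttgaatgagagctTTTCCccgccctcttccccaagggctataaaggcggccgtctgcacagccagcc

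The motifs searched on both strands were the NFAT core GGAAA, the AP-1 motif TGANTCA, the forkhead motif TGTTTAC and the NF-kB motif. Ltb's window held a forkhead match, 124 bases before the RefSeq start site, and an NF-kB match at 87 bases before, which overlaps its NFAT core. The Lta and Tnf windows each held 3 NFAT cores, most of them read as TTTCC on the strand shown, and no match to the other motifs. Of Lta's cores, 1 lies after the start site and outside the stretch shown. Over all 32851 RefSeq promoters of this length, 61.3% held the NFAT core (a mean of 1.01 matches), 7.81% the AP-1 motif, 3.65% the forkhead motif and 8.46% the NF-kB motif. These are matches to letters and not sites of binding. Among the 8 ligands with an entry in that table, all but Cd40lg, the forkhead and NF-kB motifs matched in Ltb's window only, and the AP-1 motif in Tnfsf14's.

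Ltb was by far the most abundant ligand mRNA. In double-deficient cells it stood at 1960, 2382, 2215 and 2351 CPM (replicates 2, 3, 4 and 5). In Foxp3-deficient cells it stood at 784.9, 1421, 1289 and 1314 CPM and in WT cells at 1551, 1541, 1423 and 1695 CPM (replicates 1, 3, 4 and 5 in both). The double-deficient values lay above every value of the other groups, and the Foxp3-deficient values below every WT value by a margin as small as 1421 against 1423 CPM.
Ltb rose in double-deficient cells by a log2 fold change of 0.89 (SE 0.14, edgeR adjusted p = 7.67e-04) against Foxp3-deficient cells and of 0.52 (SE 0.14, edgeR adjusted p = 0.0109) against WT. In Foxp3-deficient against WT cells it did not pass, at -0.37 (SE 0.14, edgeR adjusted p = 0.0999), although the groups' CPM did not overlap, and the value depends on the library left out. It was called without Foxp3-deficient replicate 3 (-0.46, edgeR adjusted p = 0.0454) and was -0.21 (edgeR adjusted p = 0.108) without Foxp3-deficient replicate 1, the lowest library. Against Foxp3-deficient cells the call of Ltb held with the trend of transcript length and GC content removed, at 0.71. Ltb is a short transcript of 1516 bases of exon, and tested genes of its length class had a median log2 fold change of 0.25 between double-deficient and Foxp3-deficient cells.

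Lta fell in both deficient groups. It measured 41.6, 55.5, 46.8 and 51.2 CPM in double-deficient, 53.6, 54.7, 54.1 and 44.4 CPM in Foxp3-deficient and 103, 82.6, 85.3 and 72.5 CPM in WT cells. The deficient groups overlap each other and lie below every WT library. Its log2 fold change was -0.73 (SE 0.12, edgeR adjusted p = 4.82e-04) in Foxp3-deficient cells and -0.81 (SE 0.12, edgeR adjusted p = 1.45e-04) in double-deficient cells, both against WT. Double-deficient and Foxp3-deficient cells differed by -0.08 (SE 0.12, edgeR adjusted p = 0.628). Lta was called against WT in every alternative tried.

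Tnf, the inflammatory cytokine, was not called in any comparison. It measured 29.6, 26.5, 29.8 and 36.4 CPM in double-deficient, 19.9, 43.1, 25 and 31.2 in Foxp3-deficient and 40.0, 30.5, 33.5 and 24.3 in WT cells. All 3 groups overlap. Its log2 fold changes were -0.11, 0.04 and -0.07, each with SE 0.20, for Foxp3-deficient against WT, double-deficient against Foxp3-deficient and double-deficient against WT. Of the 5 neighbouring genes fixed for comparison, 4 could be tested and 0 were called in any of the 3 comparisons by edgeR, DESeq2 or limma-voom, with 0, 0 and 1 at an unadjusted edgeR p under 0.05. In the same comparisons edgeR called 13.7%, 27.2% and 32.6% of all tested genes, and 4 genes are too few to set against these shares. The log2 fold changes of the 4 ran from -1.03 to -0.10, from -0.06 to 1.14 and from -0.80 to 0.13. The one with the highest CPM, Ddx39b, an RNA helicase, had log2 fold changes of -0.10, -0.06 and -0.16.

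The balance among the 3 neighbours is given as a description. The CPM of Lta over that of Ltb was 0.0219 ± 0.00102 in double-deficient, 0.0457 ± 0.0155 in Foxp3-deficient and 0.0557 ± 0.0101 in WT libraries. The Tnf to Ltb ratio was 0.0138 ± 0.00198, 0.0247 ± 0.00453 and 0.0209 ± 0.00503 in the same groups. Tnf over Lta was 0.635 ± 0.11, 0.581 ± 0.197 and 0.371 ± 0.0265 (SD, n = 4 each throughout). A ratio within a library does not depend on the scaling between libraries, but does depend on transcript length and on either gene's change.

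**Figure D2:**
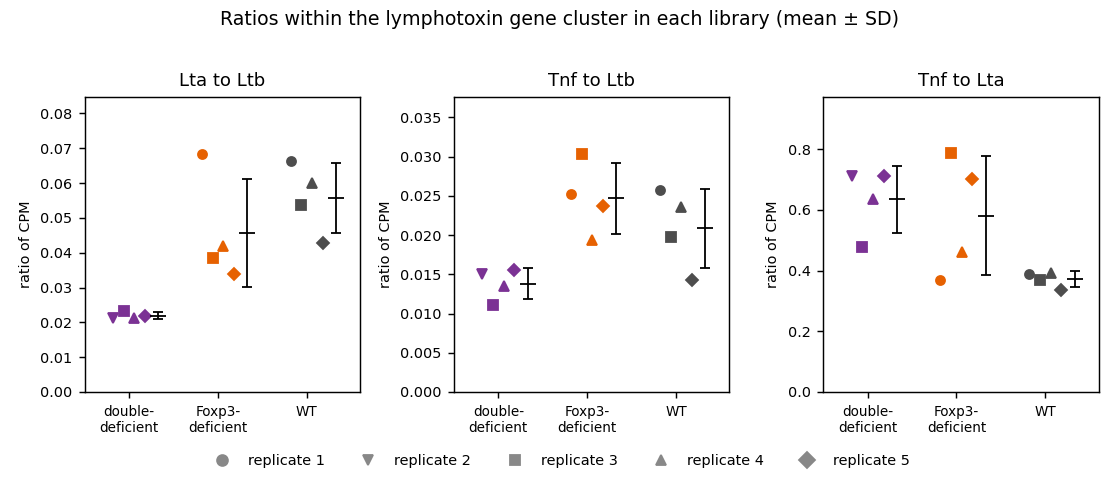
Ratio of CPM between neighbouring genes in each library (y axes, ratio of CPM; points are libraries, bars mean ± SD of 4). Lta to Ltb is between 0.0211 and 0.0233 in double-deficient libraries, 0.0338 to 0.0683 in Foxp3-deficient ones and 0.0428 to 0.0664 in WT ones.

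Cd40lg, on chromosome X at X:57212143-57224042 (GRCm38, plus strand), encodes CD40L, the signal T cells give to B cells and antigen-presenting cells through CD40. It measured 117, 100.4, 112 and 113 CPM in double-deficient cells and 119.6, 121.6, 153 and 177 CPM in Foxp3-deficient cells. In WT cells it measured 49.9, 56.8, 52.7 and 52.7 CPM. Every deficient library exceeded every WT library, and the Foxp3-deficient values lay above those of double-deficient cells with no overlap. Against WT, Cd40lg rose 2.70-fold in Foxp3-deficient cells, a log2 fold change of 1.43 (SE 0.11, edgeR adjusted p = 4.58e-07). It rose 2.09-fold in double-deficient cells, at 1.06 (SE 0.11, edgeR adjusted p = 6.73e-06).
Against Foxp3-deficient cells it was lower in double-deficient ones by a log2 fold change of -0.37 (SE 0.11, edgeR adjusted p = 0.025). That call was lost without Foxp3-deficient replicate 4 (-0.33, edgeR adjusted p = 0.0725), without Foxp3-deficient replicate 5 (-0.24, edgeR adjusted p = 0.0749) and without double-deficient replicate 3 (-0.31, edgeR adjusted p = 0.0809). It was also lost without double-deficient replicate 4 (-0.36, edgeR adjusted p = 0.0555) or 5 (-0.37, edgeR adjusted p = 0.0554), and when only the groups compared were fitted (-0.37, edgeR adjusted p = 0.0592). The change was larger with the length and GC trend removed (-0.65, edgeR adjusted p = 0.00103), with the block added to that (-0.70, edgeR adjusted p = 0.00342) and without Foxp3-deficient replicates 1 and 3 (-0.58, edgeR adjusted p = 9.18e-04). The adjusted p of this call ranged from 9.18e-04 to 0.0809 over the alternatives, which include DESeq2 and limma-voom.

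Tnfsf8, at 4:63831308-63861347 on the minus strand, encodes CD30L, a costimulatory ligand of activated T cells that binds CD30. It measured 234, 232, 208 and 239 CPM in double-deficient cells, 126, 149, 170.1 and 188 CPM in Foxp3-deficient cells and 98.0, 110.5, 110.1 and 109 CPM in WT cells. Double-deficient libraries were the highest and WT libraries the lowest, and no group overlapped another. Its log2 fold changes were 0.57 (SE 0.11, edgeR adjusted p = 0.00143) in Foxp3-deficient against WT, 0.53 (SE 0.10, edgeR adjusted p = 0.00278) in double-deficient against Foxp3-deficient and 1.10 (SE 0.11, edgeR adjusted p = 2.11e-06) in double-deficient against WT cells. All 3 calls held in every alternative tried, and the difference between the deficient groups was 0.33 (edgeR adjusted p = 0.0271) at its smallest, with the replicate block and the length and GC trend removed.

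Tnfsf11, at 14:78277445-78308043 on the minus strand, encodes RANKL, which drives osteoclast formation and thymic epithelial maturation. It measured 59.9, 68.3, 64.2 and 69.9 CPM in double-deficient cells, 52.9, 61.2, 53.7 and 92.7 CPM in Foxp3-deficient cells and 84.8, 93.7, 86.4 and 103 CPM in WT cells. Foxp3-deficient replicate 5 overlapped WT and the other Foxp3-deficient libraries lay below it. It was lower against WT in Foxp3-deficient (-0.50, SE 0.15, edgeR adjusted p = 0.0346) and in double-deficient cells (-0.49, SE 0.15, edgeR adjusted p = 0.0198), and the deficient groups differed by 0.01 (SE 0.15, edgeR adjusted p = 0.973). In Foxp3-deficient cells the call was lost without WT replicate 3, 4 or 5, without Foxp3-deficient replicate 1, 3 or 4 (-0.53 to -0.41 in these 6 fits), with only the groups compared fitted (-0.50, edgeR adjusted p = 0.0821) and with the length and GC trend removed (-0.38, edgeR adjusted p = 0.0566). With Foxp3-deficient replicates 1 and 3 both left out, it was -0.32 (edgeR adjusted p = 0.234). The double-deficient call was lost without WT replicate 5 (-0.43, edgeR adjusted p = 0.0563) or double-deficient replicate 2 (-0.45, edgeR adjusted p = 0.0517).

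**Figure D3:**
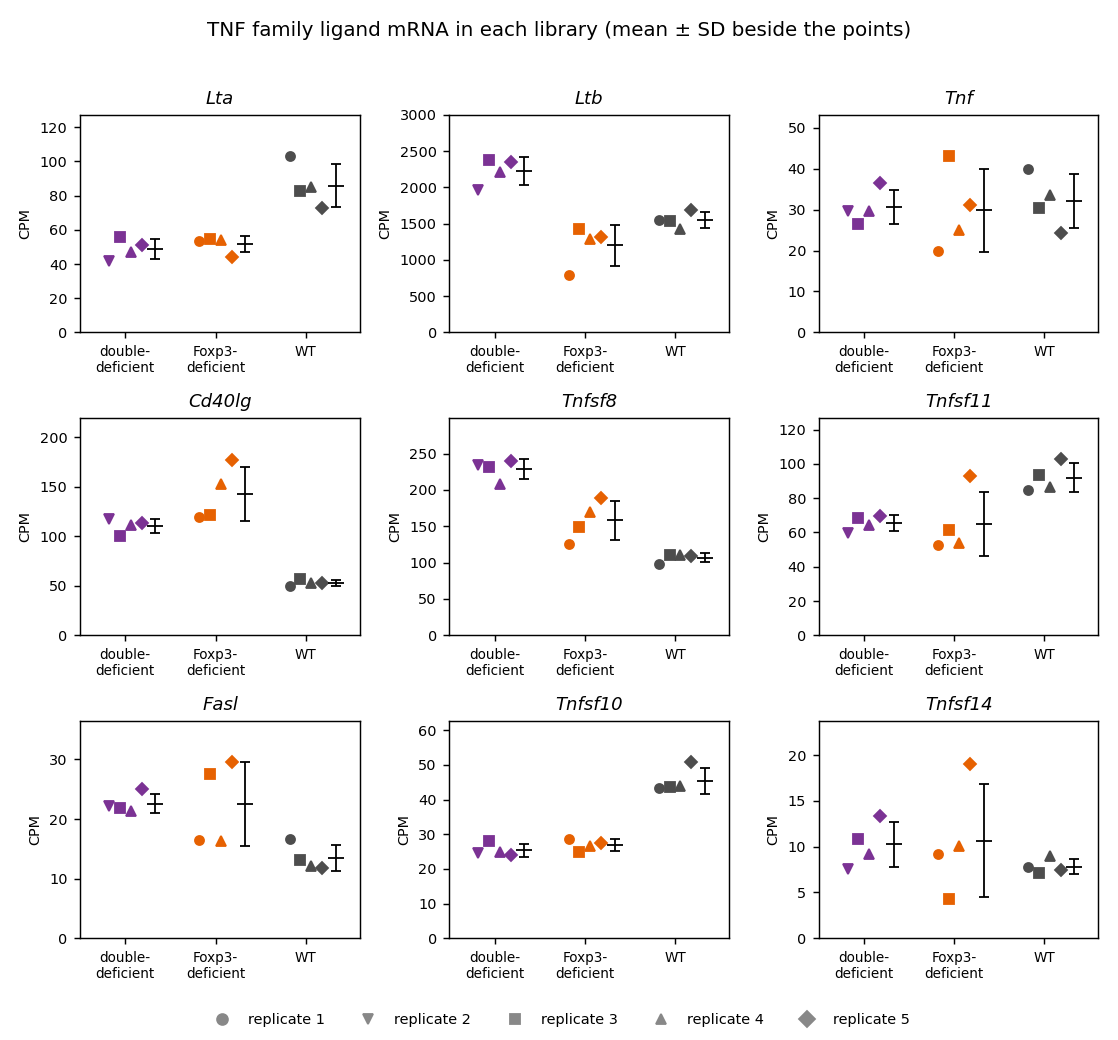
CPM of the 9 ligand genes in each library (y axes from 0; points are libraries, bars the mean ± SD of 4). The deficient groups lie apart from WT for Cd40lg (49.9 to 56.8 CPM in WT), and double-deficient libraries lie highest for Ltb, from 1960 to 2382 CPM.

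The death ligands differed in direction against WT, Fasl higher and Tnfsf10 lower. Fasl, at 1:161780689-161788495 on the minus strand, encodes FasL, the trigger of apoptosis through Fas. It measured 22.1, 21.9, 21.3 and 25 CPM in double-deficient cells, 16.5, 27.5, 16.3 and 29.5 CPM in Foxp3-deficient cells and 16.6, 13.1, 12.1 and 11.8 CPM in WT cells. The double-deficient values lay above every WT value, and in Foxp3-deficient cells the lower values, 16.3 and 16.5 CPM, fell below the highest WT value. Fasl was higher against WT in Foxp3-deficient (0.75, SE 0.19, edgeR adjusted p = 0.0153) and double-deficient cells (0.75, SE 0.19, edgeR adjusted p = 0.00796). In Foxp3-deficient cells the call was lost without WT replicate 4 (0.70, edgeR adjusted p = 0.0554), without WT replicate 5 (0.69, edgeR adjusted p = 0.0528) or without Foxp3-deficient replicate 5 (0.58, edgeR adjusted p = 0.0544). Double-deficient and Foxp3-deficient cells differed by 0.01 (SE 0.19).

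Tnfsf10, at 3:27317028-27342427 on the plus strand, encodes TRAIL, a ligand that triggers apoptosis through death receptors. It measured 24.6, 28.2, 24.9 and 24.0 CPM in double-deficient cells, 28.7, 24.8, 26.7 and 27.4 CPM in Foxp3-deficient cells and 43.2, 43.6, 43.9 and 51.0 CPM in WT cells. The deficient groups overlap each other and lie below every WT library. Its log2 fold change against WT was -0.76 (SE 0.10, edgeR adjusted p = 8.1e-05) in Foxp3-deficient and -0.84 (SE 0.10, edgeR adjusted p = 2.57e-05) in double-deficient cells, and both calls held in every alternative tried. The deficient groups differed by -0.08 (SE 0.10, edgeR adjusted p = 0.571).

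Tnfsf14, at 17:57189492-57194177 on the minus strand, encodes LIGHT, which binds HVEM (Tnfrsf14) and the lymphotoxin beta receptor. It had the lowest mean CPM of the 9 in each group, not adjusted for length, at 7.58, 10.8, 9.23 and 13.4 CPM in double-deficient, 9.20, 4.30, 10.1 and 19.1 CPM in Foxp3-deficient and 7.78, 7.08, 8.96 and 7.46 CPM in WT cells. The Foxp3-deficient libraries spanned the values of both other groups. It was not called in any comparison, at 0.45 (SE 0.32), -0.07 (SE 0.31) and 0.39 (SE 0.32) for Foxp3-deficient against WT, double-deficient against Foxp3-deficient and double-deficient against WT. With Foxp3-deficient replicates 1 and 3 left out it was called higher against WT (0.90, edgeR adjusted p = 0.0268), and without Foxp3-deficient replicate 5, the highest library, it was 0.01 (edgeR adjusted p = 0.992).

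Because a longer transcript yields more reads, levels of different ligands were compared per kilobase of exon, from GENCODE M21 lengths. Ltb led in every group, at 1470 CPM per kb in double-deficient, 793 in Foxp3-deficient and 1020 in WT cells, and made up 85.2%, 74.6% and 82.7% of the 9 ligands' summed CPM per kb in these groups. In WT cells Lta (62.1 CPM per kb) came next, and then Cd40lg (42.4) and Tnfsf11 (41.1), whose library ranges overlap. In the deficient groups Cd40lg came next, at 88.5 in double-deficient and 114 in Foxp3-deficient cells. Tnfsf8 followed there, at 60.0 and 41.6 CPM per kb in the same order, and in WT cells it measured 28.1. In Foxp3-deficient cells the library range of Tnfsf8 overlaps that of Lta, which averaged 37.4 CPM per kb. Tnf ranked 6 of 9 by its mean in each group, at 18.7 CPM per kb in double-deficient, 18.2 in Foxp3-deficient and 19.6 in WT cells. In Foxp3-deficient cells its library range overlaps those of Tnfsf11 and Fasl. Fasl measured 11.7, 11.6 and 6.92 CPM per kb in the same groups. Tnfsf14 had the lowest mean in WT cells (4.23 CPM per kb), and Tnfsf10 in the deficient groups (4.83 in double-deficient and 5.11 in Foxp3-deficient cells). In both deficient groups the library ranges of Tnfsf10 and Tnfsf14 overlap. Of the 9 ligands, 6 are in the shortest of 5 length classes of tested genes, whose median log2 fold change was -0.10 in Foxp3-deficient against WT, 0.25 in double-deficient against Foxp3-deficient and 0.15 in double-deficient against WT cells. The share of reads outside annotated genes ran from 4.63% to 5.47% in double-deficient, 6.22% to 9.27% in Foxp3-deficient and 7.52% to 8.75% in WT libraries, and its part in these differences was not tested.

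**Figure D4:**
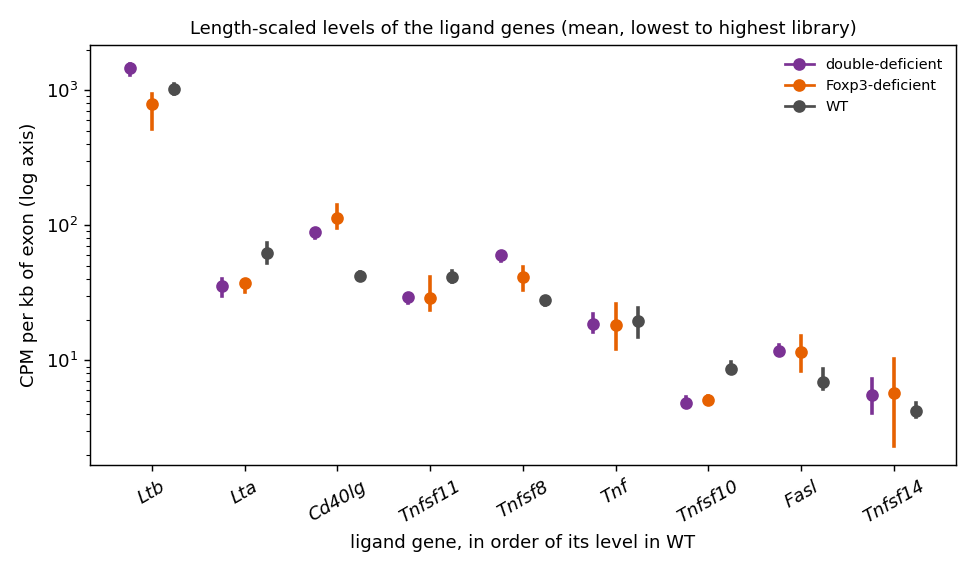
Mean level of each ligand gene per kilobase of exon (y axis, CPM per kb, log axis), with lines from the lowest to the highest of 4 libraries. Ltb lies above all others in every group, and Cd40lg is second in the deficient groups, at 88.5 in double-deficient and 114 CPM per kb in Foxp3-deficient cells.

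The receptors of these ligands were checked in the same libraries. Of 12 listed receptors, 8 could be tested. In Foxp3-deficient against WT cells, 2 were higher and 3 lower by edgeR. DESeq2 called 5 there and limma-voom 3, and with the replicate block edgeR called 0 higher and 3 lower. In double-deficient against Foxp3-deficient cells, 1 was higher and 1 lower, and against WT, 2 were higher and 3 lower. Of all tested genes, edgeR called 13.7%, 27.2% and 32.6% in these 3 comparisons, in the order given. The RNA of the cells that carry many of these receptors in tissue was not sampled, so these values are of receptor mRNA in the sorted cells. Cd40, Ltbr and Tnfrsf11a had too few reads to be tested, with no library above 0.716 CPM.

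Tnfrsf1b, encoding the TNF receptor known for supporting Treg cells, averaged 250.2 ± 9.66 CPM in double-deficient, 249 ± 37.4 in Foxp3-deficient and 601 ± 61.4 in WT cells (SD, n = 4 each). It was lower against WT in Foxp3-deficient (-1.27, SE 0.10, edgeR adjusted p = 5.41e-07) and double-deficient cells (-1.27, SE 0.10, edgeR adjusted p = 4.13e-07). Tnfrsf8, encoding CD30, the receptor of the Tnfsf8 product, averaged 2.5 ± 0.877 CPM in double-deficient, 2.17 ± 0.783 in Foxp3-deficient and 18.7 ± 1.92 in WT cells. It was lower against WT in Foxp3-deficient (-3.09, SE 0.28, edgeR adjusted p = 1.94e-06) and double-deficient cells (-2.90, SE 0.28, edgeR adjusted p = 2.04e-06), where Tnfsf8 itself was higher. Tnfrsf1a, encoding the death-domain TNF receptor, averaged 32.7 ± 1.51 CPM in double-deficient, 47.5 ± 5.31 in Foxp3-deficient and 52.7 ± 1.18 in WT cells, and was lower in double-deficient cells against both other groups (-0.54, SE 0.10, edgeR adjusted p = 0.00149 against Foxp3-deficient cells).
Fas, the receptor of FasL, averaged 95.2 ± 4.60 CPM in double-deficient, 65.3 ± 14.0 in Foxp3-deficient and 91.3 ± 11.8 in WT cells. It was lower in Foxp3-deficient against WT cells (-0.48, SE 0.13, edgeR adjusted p = 0.0212). That call was lost without WT replicate 3 (-0.48) or 5 (-0.40) or Foxp3-deficient replicate 4 (-0.43). It was also lost with only the groups compared fitted (-0.49, edgeR adjusted p = 0.0603). Fas was higher in double-deficient against Foxp3-deficient cells (0.54, SE 0.13, edgeR adjusted p = 0.00868). This second call was lost with the length and GC trend removed and the replicate block added (0.30, edgeR adjusted p = 0.0646).

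Tnfrsf14, encoding HVEM, the receptor of LIGHT, is named because of the spread of its values, after they were seen. It measured 12.3, 43.4, 37.6 and 43.4 CPM in double-deficient cells, 3.25, 5.46, 36.2 and 30.2 CPM in Foxp3-deficient cells and 3.23, 2.89, 3.67 and 2.32 CPM in WT cells. Foxp3-deficient replicates 1 and 3 lay near WT, and replicates 4 and 5 near double-deficient cells. It was higher against WT in Foxp3-deficient (2.63, SE 0.76, edgeR adjusted p = 0.044) and double-deficient cells (3.49, SE 0.77, edgeR adjusted p = 0.0068). The first call was lost without Foxp3-deficient replicate 4 (2.11) or 5 (2.30), without any of the 4 WT libraries (2.52 to 2.75) and without double-deficient replicate 3, 4 or 5 (2.62 each). It was also lost with limma-voom (2.06, adjusted p = 0.146), with no low-count filter (edgeR adjusted p = 0.101), with only the groups compared fitted (edgeR adjusted p = 0.0676) and with the replicate block (2.28, edgeR adjusted p = 0.0724), also with the trend removed (2.45, edgeR adjusted p = 0.0682). Double-deficient and Foxp3-deficient cells differed by 0.86 (SE 0.67, edgeR adjusted p = 0.371).

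**Figure D5:**
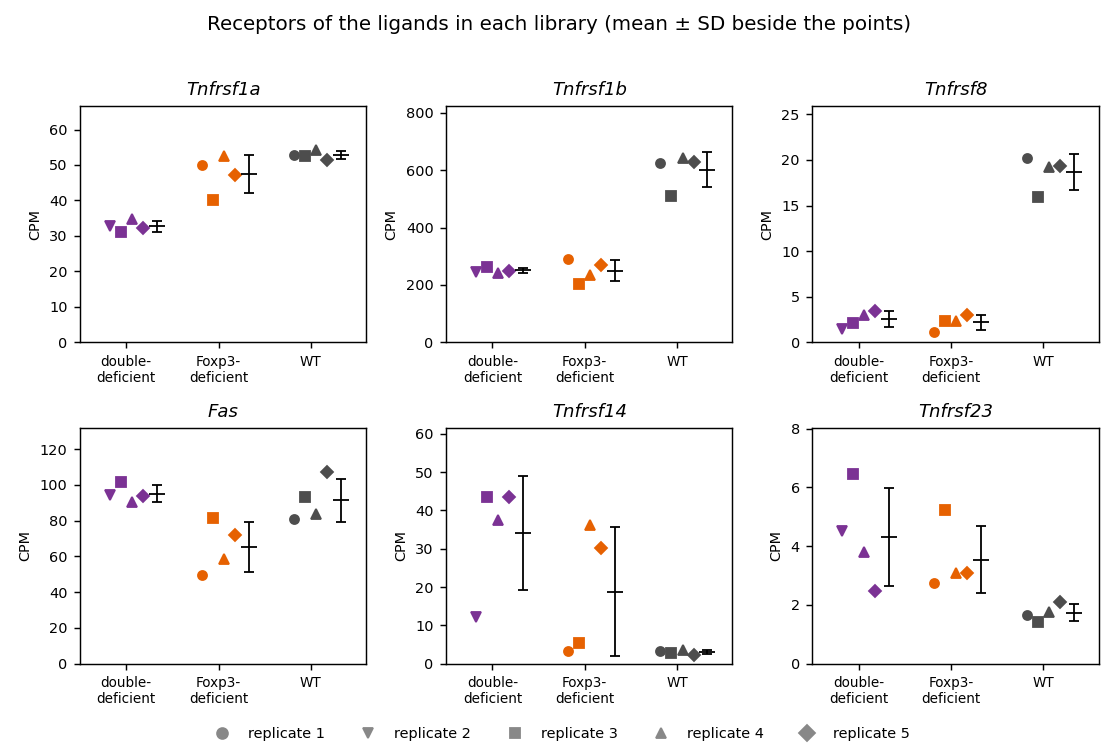
CPM of 6 receptor genes in each library (y axes from 0; points are libraries, bars the mean ± SD of 4). Tnfrsf8 lies between 1.49 and 3.39 CPM in double-deficient, 1.08 and 2.95 in Foxp3-deficient and 15.9 and 20.3 in WT libraries, and Tnfrsf14 splits the Foxp3-deficient libraries.

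Tnfrsf23, which encodes a decoy receptor of TRAIL in mouse and was also named after its values were seen, was higher against WT in Foxp3-deficient cells (1.02, SE 0.31, edgeR adjusted p = 0.0391) and double-deficient cells (1.30, SE 0.31, edgeR adjusted p = 0.00504). Its counts are low, at 4.30 ± 1.66 CPM in double-deficient, 3.54 ± 1.13 in Foxp3-deficient and 1.73 ± 0.287 in WT cells, and the first call was lost without any of the 4 WT libraries (0.93 to 1.12), Foxp3-deficient replicate 3 (0.77) or 4 (1.07), or double-deficient replicate 4 (1.01). It was also lost without Foxp3-deficient replicates 1 and 3 (0.83, edgeR adjusted p = 0.141), with limma-voom (0.94, adjusted p = 0.0734) and with the replicate block (0.94, edgeR adjusted p = 0.0646). Of the HVEM partners, Cd160, a lymphocyte receptor of HVEM, was lower in double-deficient than WT cells (-1.16, SE 0.28, edgeR adjusted p = 0.00582), at 8.85 ± 1.72 CPM in double-deficient against 19.8 ± 1.90 CPM in WT cells. Btla, an inhibitory partner of HVEM, did not pass in any comparison, with log2 fold changes of -0.02, 0.21 and 0.19.

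Of 9 other TNF superfamily ligands listed, 8 had a row in the table and 3 enough reads to be tested. Tnfsf4, encoding OX40L, averaged 2.94 ± 0.90 CPM in double-deficient, 1.12 ± 0.576 in Foxp3-deficient and 1.11 ± 0.309 in WT cells. It was higher in double-deficient cells against Foxp3-deficient (1.37, SE 0.40, edgeR adjusted p = 0.0202) and WT cells (1.40, SE 0.40, edgeR adjusted p = 0.0147). The first call was lost without Foxp3-deficient replicate 1 (1.31), without Foxp3-deficient replicates 1 and 3 (0.91, edgeR adjusted p = 0.102) and without double-deficient replicate 2 (1.21). With the replicate block both calls were lost (1.12, edgeR adjusted p = 0.0814, and 1.08, edgeR adjusted p = 0.0765), as they were with the trend removed too (0.94 and 1.04), and its 240 reads in 4 double-deficient libraries limit its precision. Tnfsf9, encoding 4-1BBL, had the highest CPM of the 3 and did not pass in Foxp3-deficient against WT cells, at -0.32. There edgeR, DESeq2 and limma-voom called 0 of the 3, and 0 had an unadjusted edgeR p under 0.05, beside 13.7% of all tested genes called by edgeR. Tnfsf4 was the 1 called in each of the other comparisons, beside 27.2% against Foxp3-deficient and 32.6% against WT cells. A list of 3 genes is too short to set against these shares.

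Among 16 genes of TNF receptor signalling, 1 was higher and 2 lower in Foxp3-deficient than WT cells, 3 and 2 in double-deficient against Foxp3-deficient cells and 3 and 5 in double-deficient against WT cells. These counts stand beside 6.99% and 6.74%, 13.9% and 13.3%, and 15.8% and 16.8% of all tested genes called higher and lower in the same comparisons. Map3k14, encoding NIK, the kinase of the noncanonical NF-kB pathway, averaged 107 ± 4.58 CPM in double-deficient, 122 ± 14.8 in Foxp3-deficient and 81.7 ± 6.01 in WT cells, and was higher in Foxp3-deficient against WT cells (0.58, SE 0.09, edgeR adjusted p = 3.47e-04). Traf1 (-0.49, SE 0.08, edgeR adjusted p = 2.89e-04) and Tank (-0.36, SE 0.07, edgeR adjusted p = 0.00225), both adaptors of TRAF signalling, were lower there.
Traf3, encoding an adaptor that restrains NIK, was lower in double-deficient cells against Foxp3-deficient (-0.54, SE 0.09, edgeR adjusted p = 0.00122) and WT cells (-0.59, SE 0.09, edgeR adjusted p = 2.44e-04). Cflar, encoding the inhibitor of death receptor signalling cFLIP, was lower in double-deficient cells against Foxp3-deficient cells too (-0.49, SE 0.11, edgeR adjusted p = 0.0051). That call was lost with the length and GC trend removed and the replicate block added (-0.27, edgeR adjusted p = 0.0598). Ripk1, encoding the kinase that links TNF receptors to survival or death, was higher in double-deficient cells against both other groups (0.35, SE 0.09, edgeR adjusted p = 0.0104 against Foxp3-deficient cells and 0.54, SE 0.09, edgeR adjusted p = 3.46e-04 against WT). The call against Foxp3-deficient cells was lost without Foxp3-deficient replicates 1 and 3 (0.26, edgeR adjusted p = 0.0671).

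Of the 6 tested genes that release or cleave membrane-bound ligands, edgeR called 0 between Foxp3-deficient and WT cells (3 at an unadjusted p under 0.05, and 1 each by DESeq2 and limma-voom), where Adam10, with the highest CPM, stood at 268.4 ± 49.3 CPM in Foxp3-deficient and 268.2 ± 16.5 in WT cells. The other comparisons had 1 lower gene each, beside 13.3% of all tested genes in double-deficient against Foxp3-deficient cells and 16.8% against WT. Rhbdf2, a regulator of Adam17 trafficking, was lower in double-deficient than Foxp3-deficient cells (-0.38, SE 0.13, edgeR adjusted p = 0.0399), and Adam17, the protease that sheds TNF, lower in double-deficient than WT cells (-0.29, SE 0.10, edgeR adjusted p = 0.0362). With the length and GC trend removed, Rhbdf2 lost its call (-0.20, edgeR adjusted p = 0.244), as it did without WT replicate 1 or 3, Foxp3-deficient replicate 1 or 5, or double-deficient replicate 3, 4 or 5 (-0.38 to -0.31). Adam17 likewise lost its call with the trend removed (-0.20, edgeR adjusted p = 0.0871) and without WT replicate 1, 4 or 5 or double-deficient replicate 4 or 5 (-0.29 to -0.24).

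Of 8 regulators of ligand mRNA decay, edgeR called 0 between Foxp3-deficient and WT cells (3 at an unadjusted p under 0.05, 0 by DESeq2 and 0 by limma-voom), 1 was higher and 2 lower in double-deficient against Foxp3-deficient cells, and the same counts were found against WT. Beside these counts, edgeR called 13.7%, 27.2% and 32.6% of all tested genes in the same order. Zfp36, encoding tristetraprolin, which binds AU-rich elements of mRNAs such as that of Tnf, averaged 1794 ± 137 CPM in double-deficient, 999 ± 417 in Foxp3-deficient and 708 ± 102 in WT cells. It was higher in double-deficient cells against Foxp3-deficient (0.85, SE 0.21, edgeR adjusted p = 0.0129) and WT cells (1.34, SE 0.22, edgeR adjusted p = 5.55e-04). Rc3h2, encoding the Roquin-2 repressor of mRNAs, was lower in double-deficient than Foxp3-deficient cells (-0.65, SE 0.13, edgeR adjusted p = 0.00375), as was Zfp36l1 (-0.43, SE 0.12, edgeR adjusted p = 0.0157), whose call was lost without Foxp3-deficient replicate 4 (-0.36) or double-deficient replicate 3 (-0.34). Zfp36 lost its call against Foxp3-deficient cells when no filter on low counts was used.

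Among 8 NFAT and NF-kB factor genes, 2 were higher and 3 lower in Foxp3-deficient than WT cells, 2 lower in double-deficient than Foxp3-deficient cells, and 1 higher and 4 lower in double-deficient than WT cells. The shares of all tested genes called in either direction were 13.7%, 27.2% and 32.6% in the same order. Nfatc2, encoding NFAT1, averaged 103 ± 11 CPM in double-deficient, 173 ± 23.6 in Foxp3-deficient and 163 ± 6.83 in WT cells, and was lower in double-deficient cells against Foxp3-deficient (-0.75, SE 0.10, edgeR adjusted p = 2.00e-04) and WT cells (-0.67, SE 0.10, edgeR adjusted p = 1.79e-04). Both calls held in every alternative, with changes as small as -0.40 and -0.29. Nfatc2 has 10578 bases of exon, and the longest class of tested genes, which also holds Rc3h2, Traf3 and Cflar, had medians of -0.22 and -0.20 in these comparisons. Rel, encoding c-Rel, was lower in double-deficient than WT cells (-0.65, SE 0.11, edgeR adjusted p = 3.23e-04). Nfatc3 (0.44, edgeR adjusted p = 0.007) was higher, and Relb (-0.36, edgeR adjusted p = 0.00934) lower, in Foxp3-deficient than WT cells. Nfkb1 was also higher there (0.39, edgeR adjusted p = 0.0154), a call lost without WT replicate 1 (0.30) or Foxp3-deficient replicate 4 (0.32). Nfatc1 was lower in double-deficient than Foxp3-deficient cells (-0.33, edgeR adjusted p = 0.0287), a call lost without Foxp3-deficient replicate 1, 4 or 5 or any double-deficient library (-0.34 to -0.23) and with the length and GC trend removed (-0.11), and lower than in WT cells (-0.43, edgeR adjusted p = 0.00619), a call lost with the length and GC trend removed.

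The tested genes with profiles most like each called ligand were found by the root mean square difference of centred log2 CPM over the 12 libraries, among the 8380 that averaged 10 CPM or more, as a description. Cd40lg was most like Acpp and Tcf7, both at 0.21, where Tcf7 encodes a transcription factor of naive and memory T cells and averaged 2584 ± 107 CPM in double-deficient, 2907 ± 198 in Foxp3-deficient and 1351 ± 50 in WT cells. Lta was most like Unc93b1 (0.13) and Parp12 (0.14). Ltb was most like Pfdn1 (0.07) and Ppib (0.10), Tnfsf8 like Commd8 (0.11) and Cd9 (0.12), and Tnfsf10 like Ergic1 (0.09) and Reps1 (0.10). Tnfsf11 was most like Lax1 (0.14) and Lpcat4 (0.16), and Fasl like Sgk3 and AB124611, both at 0.21. For scale, the root mean square of the ligand's own centred profile was 0.62 for Cd40lg, 0.40 for Lta and 0.43 for Ltb. It was 0.47 for Tnfsf8, 0.39 for Tnfsf10, 0.32 for Tnfsf11 and 0.43 for Fasl, so the most similar profile is not always a close one.

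Markers of other cells were summed beside the ligands. The 8 B cell markers summed to 771 to 940 CPM in double-deficient, 672 to 835 in Foxp3-deficient and 1256 to 1486 in WT libraries, most of it Ighm, while Pax5, a defining transcription factor of B cells, averaged under 1 read per library. Of the 4 B cell markers that could be tested, 3 were lower than WT in each deficient group. Beside these stand 6.74% of all tested genes for Foxp3-deficient and 16.8% for double-deficient cells. With the replicate block, 2 were lower in double-deficient against WT cells. In double-deficient against Foxp3-deficient cells 1 B cell marker was higher, beside 13.9% of all tested genes. The 4 plasma cell markers summed to 188 to 215.5 CPM in double-deficient, 161 to 193 in Foxp3-deficient and 204 to 221 in WT libraries, most of it Xbp1. Of the 3 tested, Jchain and Sdc1 were higher in double-deficient cells against Foxp3-deficient and WT cells, beside 13.9% and 15.8% of all tested genes. Xbp1 was not called in these comparisons, at log2 fold changes of 0.08 and -0.19. In Foxp3-deficient against WT cells 1 of the 3 was lower, beside 6.74% of all tested genes. With the replicate block, or without Foxp3-deficient replicates 1 and 3, 1 was higher in double-deficient against Foxp3-deficient cells. Jchain, encoding the joining chain of secreted immunoglobulin, averaged 11.6 ± 2.73 CPM in double-deficient, 0.902 ± 0.744 in Foxp3-deficient and 1.27 ± 1.30 in WT cells, and Sdc1 2.19 ± 0.291, 1.01 ± 0.342 and 0.65 ± 0.264 CPM, while Mzb1 averaged under 1 read per library. Myeloid markers summed to at most 1.94, 1.57 and 1.59 CPM in the same groups. NK and CD8 cell markers summed to 44.8 to 49.9, 32.2 to 44.3 and 37.9 to 44.6 CPM. Of the 5 NK and CD8 markers tested, 1 was higher and 1 lower in double-deficient against Foxp3-deficient cells, and 1 higher against WT. In Foxp3-deficient against WT cells edgeR called 0 of them, DESeq2 2 and limma-voom 0. Of all tested genes, edgeR called 27.2%, 32.6% and 13.7% in these comparisons, in the same order. The part of other cells in the ligands' differences was not tested.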

How the data were processed

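RNA of splenic Treg cells was amplified with SMART-Seq v4, sequenced on Illumina instruments, aligned to mm10 (GRCm38) with STAR 2.5.1b against a Gencode annotation and counted per gene with HTSeq, per the labels' protocols and the submitters' processing notes. Which Gencode release was used, and whether counting used strand, is not given in the sources used here, and these reads cannot separate a gene from an antisense partner if it did not. The authors deposited raw read counts for 12 libraries in a table of 25189 genes. Reads not assigned to a gene stood in separate rows and stayed out of library sizes and tests: reads outside genes were 4.63% to 9.27% of a library's reads, and reads not aligned uniquely 23.0% to 33.1%. The latter made up 31.1% to 33.1% in double-deficient, 23.0% to 29.5% in Foxp3-deficient and 25.9% to 28.5% in WT libraries. The part of this difference in the results was not tested. Because reads not aligned uniquely were left out, near-identical genes can lose reads. No exon of the 9 ligand genes overlaps another gene.

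Counts were scaled by TMM and filtered with filterByExpr, and 13196 genes were tested with edgeR 4.0.16 (R 4.3.3) in 1 quasi-likelihood fit of genotype over the 12 libraries, with Benjamini-Hochberg adjustment over all of them at 0.05. The biological coefficient of variation was 17.4%. Within a group, no pair of libraries agreed within sampling noise (chi-square per degree of freedom of 7.04 or more), so none was treated as a library deposited again; this check cannot tell technical from biological replicates. Alternatives were other scalings, no or a stricter filter, DESeq2 1.42.0, limma-voom (limma 3.58.1), a fit of only the groups compared, a replicate block, removal of the trend with exon length and GC content by loess (with and without the block), each library left out, and Foxp3-deficient replicates 1 and 3 left out together, since earlier results had shown them to stand apart. Lengths and positions are from GENCODE M21 (97.5% of genes matched) and promoters from RefSeq.

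The 9 ligands and all gene lists were chosen with earlier results of these data known. From each list the text names up to 3 called genes per comparison by adjusted p or, where none was called, the most abundant, and for each called ligand the 2 genes with the most similar profile among those of at least 10 CPM.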

Additional observations from a re-analysis of the deposited data

Results flagged for a closer look

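In 3 of 27 groups of 4 libraries tested for a library far from the others, the gap exceeded Dixon's 95% critical value, where chance flags about 1 in 20. Lta was lowest in Foxp3-deficient replicate 5, at 44.4 CPM, against 53.6 to 54.7 CPM in the other Foxp3-deficient libraries. Tnfsf8 was lowest in WT replicate 1, at 98.0 CPM. Tnfsf10 was highest in WT replicate 5, at 51.0 CPM. The calls of Lta, Tnfsf8 and Tnfsf10 against WT held without each of these libraries.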

How the results depend on the processing

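Of 27 ligand results, 16 were called, and 12 of these kept their call in all 23 alternatives; 6 results lost or gained a call and are named beside their values above, or here. Ltb in Foxp3-deficient against WT cells was called without Foxp3-deficient replicate 3 (-0.46, edgeR adjusted p = 0.0454), with the length and GC trend removed (-0.28, edgeR adjusted p = 0.047), with the replicate block (-0.40, edgeR adjusted p = 0.0474) and with both (-0.29, edgeR adjusted p = 0.0369). Same-numbered libraries correlated at 0.029 to 0.203 between Foxp3-deficient and WT cells, with 3 of 4 pairs over 0.1. In the 6 pairs with double-deficient cells the correlation was -0.052 to 0.062. The main fit has no block because the labels do not say that replicate numbers pair mice. Not every same-numbered pair passed 0.1. Foxp3-deficient replicate 1 correlated at 0.188 with WT replicate 4 and at -0.261 with WT replicate 5, although their numbers differ. For Foxp3-deficient against WT cells, whether the numbers mark a shared source is not known. With the block, the calls of Tnfrsf14, Tnfrsf23 and Tnfsf4 were lost, as given beside their values, and so were those of Rhbdf2 (-0.41, edgeR adjusted p = 0.0708) and Nfatc1 (-0.30, edgeR adjusted p = 0.0828) in double-deficient against Foxp3-deficient cells and of Adam17 (-0.29, edgeR adjusted p = 0.0706) in double-deficient against WT cells.

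The number of ligands called lower in double-deficient against Foxp3-deficient cells was 0 when only the groups compared were fitted, and 0 to 1 when 1 library was left out. All genes called there numbered 3585, and 2382 with only these groups fitted, 2064 with the block and trend removal, and 2153 to 4430 when 1 library was left out, the lowest without double-deficient replicate 5. The cause was not tested.

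No called value changed sign. Values near 0 that did, none of them called, were as follows. In Foxp3-deficient against WT cells, Adam10 was -0.02 with upper quartile scaling, the stricter filter or limma-voom, -0.00 with only these groups fitted and -0.01 with the block, and -0.07 to 0.12 when 1 library was left out. Tnf there was 0.02 with trend removal, 0.01 with the block added and -0.34 to 0.05 when 1 library was left out. Btla was 0.07 with trend removal, 0.07 with the block added, 0.10 without Foxp3-deficient replicates 1 and 3 and -0.08 to 0.05 when 1 was left out, and Tnfsf9 was 0.10 without those replicates. In double-deficient against Foxp3-deficient cells, trend removal gave Tnf -0.18, Tnfsf11 -0.19 and Fasl -0.20, and -0.16 for each with the block added. Without Foxp3-deficient replicates 1 and 3, Tnfsf11 was -0.16 and Fasl -0.03. Lta was 0.04 with the block, and Tnfsf14 was 0.15 with the block and 0.03 with limma-voom. When 1 library was left out, Tnf ranged from -0.11 to 0.27, Tnfsf11 from -0.08 to 0.24, Fasl from -0.12 to 0.18, Tnfsf14 from -0.32 to 0.38 and Ddx39b from -0.09 to 0.02. In double-deficient against WT cells, Rictor was 0.17 with trend removal, 0.17 with the block added, and Tnf ranged from -0.18 to 0.05 when 1 library was left out. Too few reads kept Cd40, Ltbr and Tnfrsf11a out of the tests.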
